A study of Mus musculus with 7 samples.

Results

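The ER protein disulfide isomerase family was followed in mouse long-term haematopoietic stem cells as 10 genes chosen by name (Pdia3, Pdia4, Pdia5, Pdia6, P4hb, Txndc5, Txndc11, Tmx1, Erp29 and Erp44) among 19649 genes in the deposited table. All 10 were found in the table, and all 10 passed the filter on low values that left 16047 genes for testing. RNA sequencing covered 3 mutant libraries of genotype Calr fl/fl (Calr del52/del52) with MxCre, and 4 wild-type libraries of genotype Calr +/+ (Calr wildtype) with MxCre. Both genotypes carried MxCre, a Cre recombinase under an interferon-responsive promoter that is active in many cell types of the mouse, and both received pI:pC, which switches it on. The cells were sorted 14 days after induction started, by a gate that took cells positive for Kit, Sca-1 and CD150 and negative for CD48 and lineage markers, and no drug was given. The labels do not state whether each library came from a single animal, so p-values measure the spread between libraries only.

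Protein disulfide isomerases form, break and rearrange the disulfide bonds of proteins that fold in the endoplasmic reticulum (ER), mostly through a pair of cysteines in a thioredoxin-like fold. Members differ in their partners: the product of Pdia3, ERp57, is brought to glycoproteins by calreticulin and calnexin, whereas the product of P4hb, the classical protein disulfide isomerase, takes its oxidizing power from ERO1 oxidases. Calreticulin is the product of Calr, and the del52 allele gives it a new C-terminal end that lacks the KDEL signal for ER retrieval. Many members are induced when misfolded proteins build up in the ER.

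Mutant 1, 2 and 3 are the libraries titled DEL52_6244, DEL52_6246 and DEL52_OT1865. The wild-type libraries form a pair titled Mx1_Cre1 and Mx1_Cre2 (wild type 1 and 2) and a pair titled Mx1_Cre6261 and Mx1_Cre6266 (wild type 3 and 4), of which the second shares its number series with mutant 1 and 2. The sources used here do not say whether the numbers mark batches. Counted reads ranged from 21325340 to 27083569 in the mutant and from 22555594 to 28710304 in the wild-type libraries. With limma, 7215 of 16047 genes (45%) differed between wild type 3 and 4 and wild type 1 and 2, 24.1% as higher and 20.9% as lower in wild type 3 and 4, and the slope of a library's log2 deviations on log2 exonic length was -0.18 to 0.01 in the mutant, -0.11 and -0.10 in wild type 2 and 1, and 0.24 in both wild type 3 and wild type 4. All 17 stem cell markers had reads in all libraries, and Kit stood at 2976 to 6677 normalized counts in the mutant, against 4150 and 4068 in the first wild-type pair and 26511 and 25305 in the second. Ly6a (Sca-1) and Slamf1 (CD150), also in the gate, went the other way between the pairs. Ly6a had 4207 to 6262 in the mutant, 4838 and 6363 in the first pair and 2323 and 2407 in the second. Slamf1 had 1915 to 2407, 1778 and 1931, and 1416 and 1422. Of the 17 markers, 7 were called as higher and 2 as lower in wild type 3 and 4 (24.1% and 20.9% of all genes). Cd48, which the gate selects against, had 124 to 164 in the mutant and 128 to 241 in wild type. Of marker lists of other cells, 15 neutrophil and monocyte genes summed to 23079 to 69159 normalized counts in the mutant and 59129 to 103332 in wild type, with 4 of the 15 log2 differences above 0 (median -2.09). Every mutant library lay below every wild-type library in 6 of these 15 genes, against 4.34% of all genes, and above in 0, against 5.23%. The 10 megakaryocyte and platelet genes summed to 8920 to 16375 in the mutant and 11878 to 25945 in wild type, with 2 of the 10 log2 differences above 0 (median -0.41). The 10 erythroid genes summed to 55866 to 69809 in the mutant and 34666 to 55402 in wild type. Only 3 of these 10 log2 differences were above 0 (median -0.49), so the erythroid sum does not stand for most genes of its list. Lower sums were found for 7 mast cell, basophil and eosinophil genes (98.2 to 251 in the mutant and 289 to 480 in wild type, with 4 of 7 at 0 in mutant 2), 5 T and NK cell genes (1206 to 1788 and 878 to 2516) and 12 plasma cell genes (2769 to 4224 and 2058 to 3378). In the first of these lists 4 genes were tested, with 0 log2 differences above 0 (median -2.25). In the plasma cell list 5 of the 9 tested log2 differences were above 0 (median 0.12). Its Jchain did not pass 19.6 in any library, and its Sdc1 had 262 to 401 in the mutant and 324 to 422 in wild type. Derl3, also of that list, had 145, 190 and 191 in mutant 1 to 3, against 53.5, 62.3, 24.2 and 150 in wild type 1 to 4. The share of mitochondrial reads was 0.683% to 1.17% in mutant libraries and 0.363% to 0.711% in wild-type libraries. In bulk libraries, fewer cells of a type and less RNA per cell cannot be told apart, and the part of other cells and of mitochondrial reads in the results was not tested; a fit with the length slope is given further on.

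The members fell into several patterns. Pdia3, Pdia4 and Pdia6 were higher in every mutant library than in every wild-type library of either pair. Pdia5, Erp29, Erp44 and Tmx1 differed mostly from wild type 3 and 4, and P4hb, Txndc5 and Txndc11 had overlapping groups. Over all 7 libraries limma called none of the 10 members and none of the 16047 genes (0%, smallest adjusted p = 0.538); at an unadjusted p under 0.05 there were 1365 genes (8.51%), Pdia3, Pdia4 and Pdia6 among them. edgeR also called 0 genes (1639 unadjusted), while DESeq2 called 110 (0.685%), none of them a member. Groups did not overlap, with the mutant higher, in 4 of the 10 members (Pdia3, Pdia4, Pdia6 and Erp44), against 840 of 16047 genes (5.23%), and the median log2 difference was 0.37 over the members, against 0.00 over all genes tested. None of the members lay below every wild-type library, against 696 genes (4.34%).

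**Figure D1:**
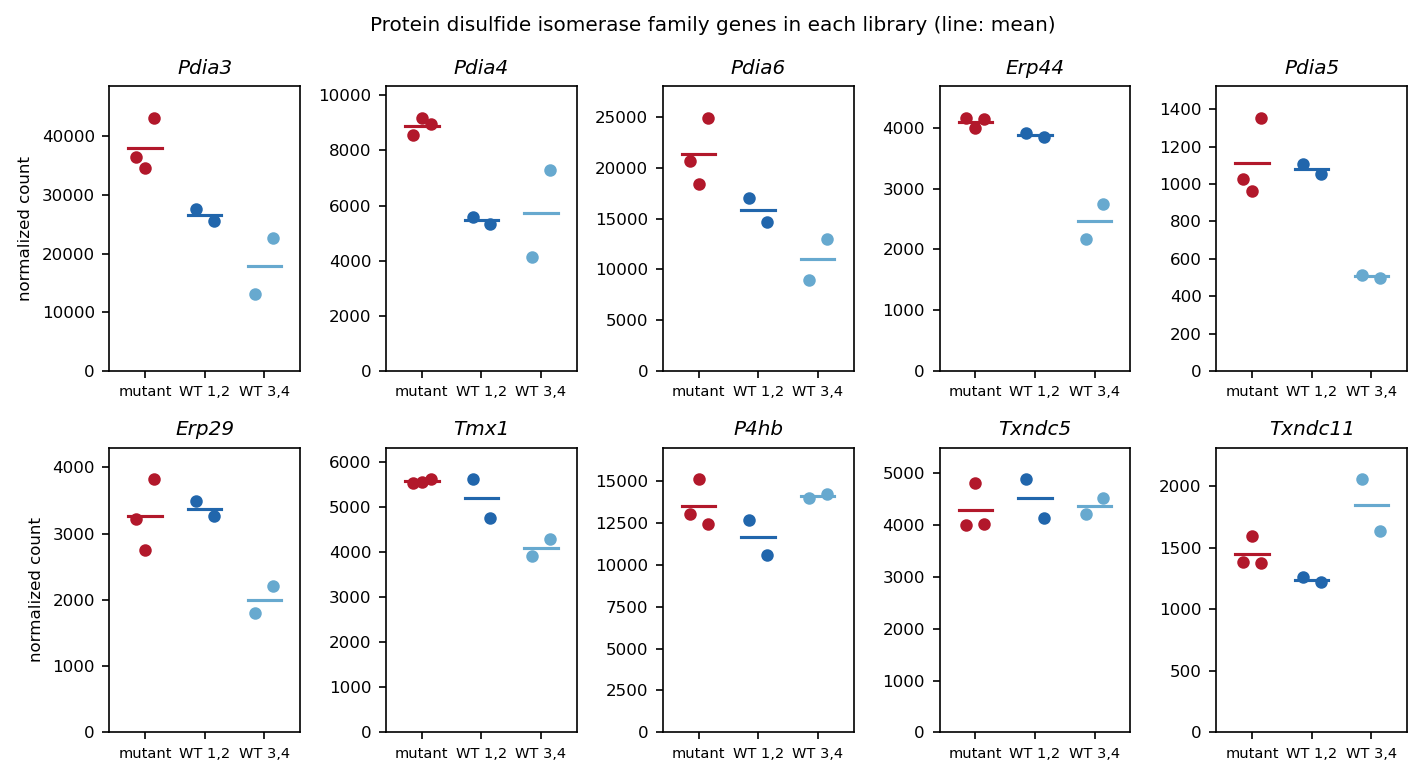
Normalized counts of the 10 genes, with 1 panel per gene, a linear vertical axis from 0, 1 point per library and a line at the mean of mutant 1 to 3, wild type 1 and 2 (WT 1,2) or wild type 3 and 4 (WT 3,4). The mutant points of Pdia3, Pdia4 and Pdia6 sit above all wild-type points, and those of Pdia5, Erp29 and Tmx1 overlap wild type 1 and 2.

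Pdia3 (ENSMUSG00000027248.13, chr2:121413775-121438687, GRCm38) encodes ERp57, which also sits in the peptide-loading complex of MHC class I. It had 36424, 34573 and 43170 normalized counts in mutant 1 to 3, against 27683, 25615, 13184 and 22605 in wild type 1 to 4. The lowest mutant library was 1.25 times the highest wild-type library, and wild type 3 was the lowest of all. The means were 38055 ± 4525 (SD, n = 3) in the mutant and 22272 ± 6407 (SD, n = 4) in wild type, a log2 difference of 0.82 (SE 0.27, limma, adjusted p = 0.538). Against wild type 1 and 2 alone the log2 difference was 0.51 (SE 0.22, adjusted p = 0.402), and against wild type 3 and 4 it was 1.13 (SE 0.22, adjusted p = 2.48e-03). Pdia3 thus passed the test against wild type 3 and 4 and not against wild type 1 and 2, with the same sign in both. Wild type 3 and 4 minus wild type 1 and 2 was -0.63 (adjusted p = 0.0551), and lay between -1.01 and -0.24 with 1 library left out.

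Pdia4 (ENSMUSG00000025823.9, chr6:47796141-47813430) encodes ERp72, a multi-domain isomerase that is found in complexes with other ER chaperones. It had 8541, 9188 and 8972 normalized counts in mutant 1 to 3, against 5588, 5344, 4137 and 7301 in wild type 1 to 4. Mutant libraries lay close together, while wild type 3 and 4 were the lowest and the highest of the wild-type libraries. The means were 8900 ± 329 (SD, n = 3) in the mutant and 5593 ± 1304 (SD, n = 4) in wild type (log2 difference 0.70, SE 0.21, unadjusted 95% interval 0.23 to 1.17, limma, adjusted p = 0.538). Pdia4 was the member whose difference was the same against both pairs, at 0.70 (SE 0.21, adjusted p = 0.205) against wild type 1 and 2 and 0.69 (SE 0.21, adjusted p = 0.0189) against wild type 3 and 4. The second call rested on wild type 3, without which the difference from that pair was 0.29 (adjusted p = 0.265).

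Pdia6 (ENSMUSG00000020571.12, chr12:17266545-17284770) encodes P5, an isomerase that works with the ER chaperone BiP. It had 20638, 18396 and 24933 normalized counts in mutant 1 to 3, against 17006, 14648, 8982 and 12962 in wild type 1 to 4. All mutant libraries were higher, but mutant 2 exceeded wild type 1 by a factor of only 1.08. The means were 21322 ± 3322 (SD, n = 3) in the mutant and 13400 ± 3380 (SD, n = 4) in wild type (log2 difference 0.70, SE 0.24, limma, adjusted p = 0.538). The log2 difference was 0.42 (SE 0.19, adjusted p = 0.432) against wild type 1 and 2 and 0.97 (SE 0.19, adjusted p = 2.88e-03) against wild type 3 and 4. Wild type 3 and 4 minus wild type 1 and 2 was -0.55 (adjusted p = 0.0569), and lay between -0.81 and -0.28 with 1 library left out.

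The starts of these 3 genes, with that of P4hb as an abundant member without such a difference, are shown because genes of the ER stress response often carry paired boxes there, read by NF-Y and by ATF6 or XBP1. Each line runs 5′ to 3′ on the gene's strand from 250 bases before to 50 after the start (RefSeq, GRCm38.p6), and capitals mark CCAAT and CCACG on either strand (ATTGG and CGTGG where they lie on the other strand).
Pdia3, chr2:121413652-121413951, plus strand: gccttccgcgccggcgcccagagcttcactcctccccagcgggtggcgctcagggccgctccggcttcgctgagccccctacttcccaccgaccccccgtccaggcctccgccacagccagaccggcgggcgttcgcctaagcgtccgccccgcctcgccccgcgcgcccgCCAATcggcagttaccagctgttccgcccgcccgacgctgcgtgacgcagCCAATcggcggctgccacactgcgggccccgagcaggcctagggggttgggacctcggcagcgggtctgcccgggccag
Pdia4, chr6:47813463-47813762, minus strand: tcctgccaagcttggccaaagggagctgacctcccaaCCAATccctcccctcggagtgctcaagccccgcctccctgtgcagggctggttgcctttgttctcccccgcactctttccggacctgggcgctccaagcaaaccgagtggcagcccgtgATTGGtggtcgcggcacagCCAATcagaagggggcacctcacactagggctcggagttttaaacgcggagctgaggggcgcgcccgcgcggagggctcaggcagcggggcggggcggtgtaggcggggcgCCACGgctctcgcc
Pdia6, chr12:17266339-17266638, plus strand: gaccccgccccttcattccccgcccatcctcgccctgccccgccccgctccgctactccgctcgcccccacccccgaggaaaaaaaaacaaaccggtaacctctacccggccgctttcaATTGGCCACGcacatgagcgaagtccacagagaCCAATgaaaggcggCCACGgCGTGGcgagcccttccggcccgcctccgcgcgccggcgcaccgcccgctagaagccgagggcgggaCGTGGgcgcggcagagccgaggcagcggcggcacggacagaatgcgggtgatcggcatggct
P4hb, chr11:120573204-120573503, minus strand: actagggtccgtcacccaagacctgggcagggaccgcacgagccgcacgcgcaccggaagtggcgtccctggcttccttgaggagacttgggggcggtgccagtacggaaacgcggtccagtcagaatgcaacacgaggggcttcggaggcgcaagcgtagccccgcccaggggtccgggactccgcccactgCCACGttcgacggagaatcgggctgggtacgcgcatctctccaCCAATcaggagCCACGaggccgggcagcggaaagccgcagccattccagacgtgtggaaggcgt
The full ER stress element, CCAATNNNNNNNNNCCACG, matched the Pdia6 window once, from 98 bases before the start, and no other window of the 9 members in the promoter table; it was found in 39 of 32851 promoter windows (0.119%). Pdia3 held 2 CCAAT boxes and no CCACG, Pdia4 held 3 CCAAT boxes and 1 CCACG, and P4hb held 1 CCAAT and 2 CCACG. Of all windows, 37.4% held CCAAT and 32.8% held CCACG, and both boxes are parts of the full element. A second element, ATTGGNCCACG, was found in 12 windows (0.0365%) and in no member's window. The shorter TGACGTGG, which contains the CCACG box on the other strand, was found in 222 windows (0.676%), including 1 window each of Txndc5 and Txndc11. Erp29 is named only. A match of letters is a description and does not show that a factor binds.

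Erp44, Erp29, Pdia5 and Tmx1 had lower levels in wild type 3 and 4 than in all other libraries, as did Pdia3 and Pdia6 above. Erp44 (ENSMUSG00000028343.10, chr4:48193323-48279558), which retrieves ERO1 oxidases and unassembled proteins from the early secretory pathway, had 4171, 3999 and 4153 normalized counts in mutant 1 to 3, against 3918, 3852, 2173 and 2753 in wild type 1 to 4. The lowest mutant library exceeded the highest wild-type library by a factor of only 1.02. The log2 difference was 0.08 (SE 0.14, adjusted p = 0.875) against wild type 1 and 2 and 0.75 (SE 0.14, adjusted p = 2.12e-03) against wild type 3 and 4.

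Erp29 (ENSMUSG00000029616.9, chr5:121428590-121452506), an escort chaperone that lacks the active-site cysteine pair, had 3225, 2748 and 3822 normalized counts in mutant 1 to 3, against 3496, 3261, 1803 and 2206 in wild type 1 to 4. Mutant and wild type 1 and 2 overlapped, with a log2 difference of -0.06 (SE 0.17, 95% interval -0.43 to 0.31), and the difference from wild type 3 and 4 was 0.70 (SE 0.17, adjusted p = 6.75e-03), or 0.55 without wild type 3 (adjusted p = 0.0893). Pdia5 (ENSMUSG00000022844.8, chr16:35397312-35490873), whose product has been linked to ATF6 activation in human cells, had 1025, 961 and 1355 normalized counts in mutant 1 to 3, against 1109, 1054, 516 and 496 in wild type 1 to 4. It showed the largest gap of the family between the wild-type pairs (log2 difference -1.10, SE 0.19, adjusted p = 1.62e-03), and mutant minus wild type 1 and 2 was 0.03 (SE 0.17, 95% interval -0.36 to 0.41). Mutant minus wild type 3 and 4 was 1.12 (SE 0.17, adjusted p = 9.55e-04).

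Tmx1 (ENSMUSG00000021072.12, chr12:70453095-70468040), a membrane-anchored member, had 5524, 5556 and 5613 normalized counts in mutant 1 to 3, against 5614, 4759, 3907 and 4281 in wild type 1 to 4. The SD of the mutant libraries was 45.0 normalized counts (n = 3), and wild type 1 reached the same level. The log2 difference was 0.11 (SE 0.13, adjusted p = 0.813) against wild type 1 and 2 and 0.44 (SE 0.13, adjusted p = 0.0188) against wild type 3 and 4. With wild type 3, wild type 4 or mutant 1 left out, the second difference no longer passed (adjusted p = 0.160, 0.0702 and 0.0612).

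P4hb, Txndc5 and Txndc11 showed no difference past the test against either pair. P4hb (ENSMUSG00000025130.11, chr11:120560298-120573253), whose product is also a subunit of collagen prolyl 4-hydroxylase and of the microsomal triglyceride transfer protein, had 13044, 15097 and 12433 normalized counts in mutant 1 to 3, against 12655, 10600, 13972 and 14235 in wild type 1 to 4. The groups overlapped, at 13524 ± 1396 (SD, n = 3) in the mutant and 12865 ± 1661 (SD, n = 4) in wild type, with a log2 difference of 0.08 (95% interval -0.32 to 0.47). Against wild type 1 and 2 it was 0.22 and against wild type 3 and 4 it was -0.07, so its sign turned with the pair.

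Txndc5 (ENSMUSG00000038991.17, chr13:38500079-38528824) encodes ERp46, an isomerase that is abundant in secretory cells. It had 3998, 4822 and 4027 normalized counts in mutant 1 to 3, against 4887, 4145, 4221 and 4528 in wild type 1 to 4 (log2 difference -0.06, 95% interval -0.41 to 0.30). Txndc11 (ENSMUSG00000022498.16, chr16:11074911-11134650), a membrane protein first known as a partner of the DUOX oxidases, had 1384, 1589 and 1371 normalized counts in mutant 1 to 3, against 1263, 1218, 2055 and 1634 in wild type 1 to 4. Mutant libraries lay between the pairs, with a log2 difference of 0.22 (SE 0.15, adjusted p = 0.620) against wild type 1 and 2 and -0.34 (SE 0.15, adjusted p = 0.0875) against wild type 3 and 4. Between the wild-type pairs 4 of 10 members were called, where 45% of all genes were: Txndc11 as higher in wild type 3 and 4 (0.56, adjusted p = 0.0191), and Pdia5, Erp29 and Erp44 as lower. Of these calls, that of Txndc11 did not pass without wild type 1, 2 or 3 (adjusted p = 0.0805, 0.102 and 0.184), that of Erp29 without wild type 1 or 3 (0.0612 and 0.0779) and that of Erp44 without wild type 3 (0.0786). Other settings added calls between the pairs: Pdia3 and Pdia6 passed as lower with DESeq2 (adjusted p = 0.0419 and 0.0417), without wild type 4 (0.0156 and 0.0351), without mutant 2 (0.0256 and 0.0202) and without mutant 3 (0.0335 and 0.0266), Tmx1 as lower without mutant 2 (0.0392), and P4hb as higher with quantile normalization (0.0217). Against wild type 3 and 4, Txndc11 passed as lower without mutant 2 (-0.41, adjusted p = 0.0235).

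Against wild type 3 and 4 as a pair, 7 of 10 members were called, all with mutant libraries higher, where 46.8% of all genes were called, 3543 of 16047 (22.1%) as higher. Against wild type 1 and 2, 0 of 10 were called, where 50 genes (0.312%) were called, 41 (0.255%) as higher. The median log2 difference of the members was 0.70 against wild type 3 and 4 and 0.16 against wild type 1 and 2, with -0.00 and 0.00 over all genes tested. These comparisons share the mutant libraries, so their values are given side by side only.

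**Figure D2:**
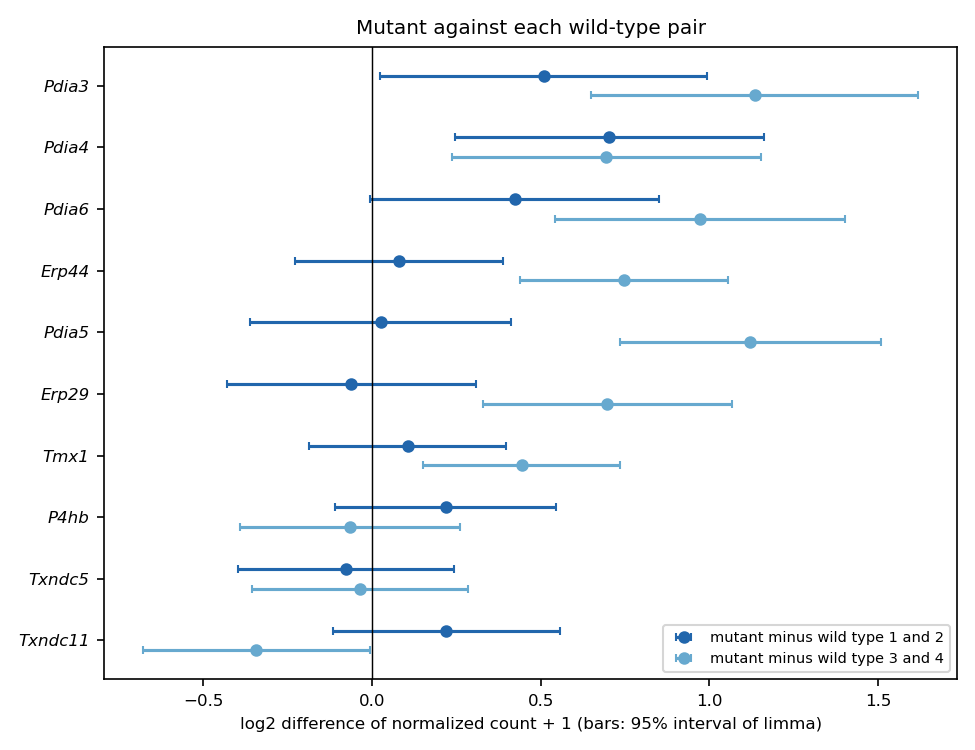
Log2 difference of each gene between the mutant and wild type 1 and 2 (dark blue) or wild type 3 and 4 (light blue), on the log2(normalized count + 1) scale, with limma's 95% intervals from a fit of 3 groups. Pdia4 has the same value against both pairs (0.70 and 0.69), whereas Pdia5 has 0.03 and 1.12.

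The libraries can also be split into sets that share none. Within the shared title series (mutant 1 and 2 against wild type 3 and 4), log2 differences were 1.04 for Pdia3 (limma, adjusted p = 0.0101), 0.69 for Pdia4 (adjusted p = 0.0501) and 0.85 for Pdia6 (adjusted p = 9.69e-03). Pdia3 and Pdia6 were thus called as higher within the series and Pdia4 was not. Pdia5, Erp29, Erp44 and Tmx1 were also called as higher there, where 16.4% of all genes were. Outside it only mutant 3 stands against wild type 1 and 2, so the values are given with no test: the log2 differences were 0.70 for Pdia3, 0.72 for Pdia4 and 0.66 for Pdia6, and 0.10, 0.18, 0.32 and 0.12 for Erp44, Erp29, Pdia5 and Tmx1. With the title series as a covariate over all 7 libraries, Pdia3, Pdia4, Pdia5 and Pdia6 were called as higher (log2 0.90, 0.70, 0.71 and 0.78; adjusted p = 0.0258, 0.0308, 0.0264 and 0.0258), in a fit that called 9.96% of genes as higher. That fit takes the shift of the series to be the same in both genotypes. The length slopes within the series were unlike, at -0.12 and 0.01 in mutant 1 and 2 and 0.24 in both wild type 3 and wild type 4. With the length slope as a covariate, Pdia3, Pdia4 and Pdia6 had 0.53, 0.71 and 0.43 and none was called (adjusted p = 0.216, 0.110 and 0.219), in a fit that called 0.791% of genes, while Pdia5, Erp29 and Erp44 had 0.07, -0.05 and 0.13.

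Levels of different genes can be compared only per length, here as the authors' FPKM summed over the transcripts of a gene. Pdia3 stood highest in both genotypes, at 602 ± 84.9 FPKM in the mutant and 340 ± 97.0 FPKM in wild type, followed by Pdia6 at 377 ± 65.2 and 239 ± 57.2 and P4hb at 180 ± 14.9 and 172 ± 21.9 (SD, n = 3 and n = 4). Pdia4 had 141 ± 4.50 and 89.6 ± 21.2, Erp29 116 ± 20.3 and 94.3 ± 29.1, Tmx1 77.0 ± 2.17 and 64.5 ± 9.25, Erp44 60.4 ± 3.18 and 47.0 ± 12.8, and Txndc5 58.3 ± 4.88 and 61.2 ± 4.24 FPKM. Pdia5 (23.4 ± 5.02 and 16.6 ± 6.97) and Txndc11 (20.1 ± 1.64 and 20.7 ± 4.51) were the lowest. In the mutant the order was the same in all 3 libraries except between Erp44 and Txndc5 and between Pdia5 and Txndc11, whose ranges overlapped. In wild type Erp29 and Pdia4 changed places between libraries (Erp29 higher in 2 of 4), as did Tmx1 and Txndc5 and the last pair. Pdia6 lay above P4hb in 3 of 4, and Txndc5 above Erp44 in 3 of 4.

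The make-up of the family differed accordingly. The 10 genes summed to 1605, 1523 and 1840 FPKM in mutant 1 to 3, against 1341, 1220, 863 and 1159 FPKM in wild type 1 to 4. Pdia3 made up 35.9%, 34.9% and 37.8% of that sum in mutant 1 to 3, against 31.9%, 31.8%, 23.7% and 29.5% in wild type 1 to 4, with no overlap. Txndc5 made up 3.42%, 4.20% and 3.05% in mutant 1 to 3, against 4.96%, 4.72%, 6.73% and 5.41% in wild type 1 to 4, also with no overlap. Tmx1 likewise made up 4.78%, 4.92% and 4.31% in mutant 1 to 3, against 5.70%, 5.43%, 6.34% and 5.22% in wild type 1 to 4. The FPKM of Txndc5 itself overlapped between the groups and the mean FPKM of Tmx1 was higher in the mutant, while the sum of the 10 genes was larger in the mutant. The ratio of Pdia3 to P4hb FPKM was 3.30, 2.70 and 4.12 in mutant 1 to 3, against 2.54, 2.70, 1.10 and 1.78 in wild type 1 to 4, where mutant 2 and wild type 2 were level. Calr is the gene altered in the mutant, and whether its reads were counted alike in both genotypes was not tested. The ratio of Pdia3 to Calr FPKM did not overlap, at 2.15, 1.85 and 2.42 in mutant 1 to 3, against 1.31, 1.27, 0.683 and 1.13 in wild type 1 to 4. That of Pdia3 to Canx overlapped, at 3.91, 3.03 and 4.97 in mutant 1 to 3, against 3.95, 4.41, 1.54 and 1.75 in wild type 1 to 4.

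**Figure D3:**
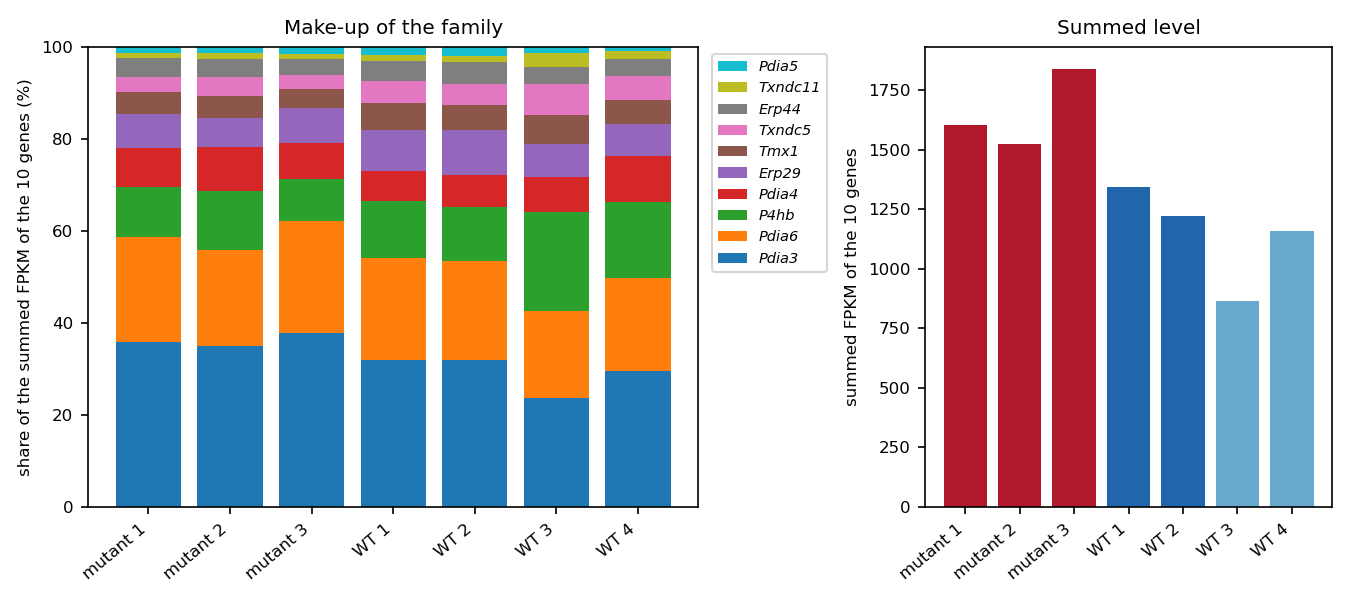
Left, share of each gene in the summed FPKM of the 10 genes (%), in mutant 1 to 3 and wild type 1 to 4 (WT 1 to WT 4); right, that sum in FPKM. Pdia3 takes 34.9% to 37.8% in the mutant and 23.7% to 31.9% in wild type, and the mutant sums (1523 to 1840) lie above the wild-type sums (863 to 1341). FPKM over all transcripts also differed between libraries.

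Single transcripts did not give a call. Of the members' transcripts, 23 reached an FPKM of 1 in 3 or more libraries, and limma called 0 of them and 0 of all 30156 transcripts tested (0%, 2077 at an unadjusted p under 0.05). The full-length transcript Pdia3-201 had 498 ± 67.4 FPKM in the mutant (SD, n = 3) and 296 ± 84.6 in wild type (SD, n = 4), or 82.9% and 87.0% of the gene. A short transcript annotated for nonsense-mediated decay, Pdia3-203, had 78.6 ± 8.77 and 38.7 ± 14.7 FPKM (log2 difference 1.06, SE 0.27, adjusted p = 0.661). Its share of the gene overlapped, at 12.9%, 13.7% and 12.7% in mutant 1 to 3, against 14.2%, 8.23%, 14.1% and 9.76% in wild type 1 to 4. The share of Pdia3-201 was 82.4% to 83.2% in the mutant and 83.8% to 89.6% in wild type. Pdia4-201, Pdia6-201 and P4hb-201 made up 99.9%, 97.9% and 99.8% of their gene's FPKM in mutant libraries, against 99.8%, 96.3% and 99.8% in wild-type libraries. Of the protein-coding transcripts of Txndc5, Txndc5-201 made up 82.2% in the mutant (77.2% to 91.2%) and 80.6% in wild type (77.4% to 84.5%). Txndc5-203 made up 17.2% and 18.8%, and Txndc5-204 0.41% and 0.35%.

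Of 70 genes listed as related to the family, 66 were in the table and 65 were tested. None was called over all 7 libraries or against wild type 1 and 2, and against wild type 3 and 4 there were 21 called as higher and 17 as lower in the mutant (22.1% and 24.7% of all genes). Every mutant library lay above every wild-type library in 8 of the 65 (5.23% of all genes): Erp27, Selenok, Hsp90b1, Edem2, Mcfd2, Xbp1, Ddit3 and Creb3. Every mutant library lay below in Calr, the gene altered in the mutant, and in Pdia2, against 4.34% of all genes. Pdia2 was near the floor, at 0.893 to 6.73 normalized counts in the mutant. Selenok, Hsp90b1, Edem2 and Creb3 are named after their values were seen.

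Among 9 other ER proteins of the thioredoxin fold, Erp27, a non-catalytic protein that binds ERp57, had 519, 457 and 768 normalized counts in mutant 1 to 3, against 363, 305, 204 and 260 in wild type 1 to 4 (log2 difference 1.03). It was 0.77 against wild type 1 and 2 (limma, adjusted p = 0.247) and 1.29 against wild type 3 and 4 (adjusted p = 2.18e-03). Tmx4, a membrane-bound relative of Tmx1, ranged from 3459 to 6254 in the mutant and from 1270 to 9667 in wild type. Pdia2, a pancreatic isomerase, had 0.893 to 6.73 in the mutant and 8.32 to 12.5 in wild type. In this list 3 genes were called as higher and 2 as lower than in wild type 3 and 4, against 22.1% and 24.7% of all genes.

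Of 13 thiol oxidases, reductases and peroxidases, 8 rose and 2 fell against wild type 3 and 4, where 22.1% of all genes were called as higher and 24.7% as lower, and the list's median log2 difference was 0.92 there and 0.17 against wild type 1 and 2. Gpx8, an ER peroxidase, had 133, 59.8 and 146 normalized counts in mutant 1 to 3, against 83.0, 106, 35.9 and 29.9 in wild type 1 to 4. Selenos and Selenom, ER selenoproteins, had log2 differences of 0.81 and 0.71 over all libraries, with overlapping groups. Ero1a (Ero1l in the table), the oxidase that recharges P4hb, had 804, 1020 and 811 in mutant 1 to 3, against 834, 730, 1352 and 1063 in wild type 1 to 4, and Ero1b (Ero1lb) had 644, 510 and 709 in mutant 1 to 3, against 345, 461, 489 and 575 in wild type 1 to 4. Both overlapped between the genotypes.

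Of 20 partner proteins, 3 rose and 6 fell against wild type 3 and 4, against 22.1% and 24.7% of all genes. Sdf2l1, a BiP-associated ER protein, had 4766, 3825 and 6320 normalized counts in mutant 1 to 3, against 4072, 4093, 1156 and 2629 in wild type 1 to 4. Edem3 and Uggt1, which handle misfolded glycoproteins, had log2 differences of -1.98 and -1.10 against wild type 3 and 4 and 0.20 and -0.22 against wild type 1 and 2. Calr had 14239 to 15724 normalized counts in the mutant and 15922 to 18606 in wild type, Canx 13731 to 17800 and 8633 to 18881, Hspa5, which encodes BiP, 33736 to 43443 and 24267 to 35957, and Tapbp, the MHC class I partner of ERp57, 6146 to 8499 and 8018 to 8613. Among 8 genes of KDEL retrieval and zinc transport, 4 rose against wild type 3 and 4 (22.1% of all genes) and none fell (24.7% of all genes). The KDEL receptors Kdelr1 and Kdelr2 had 0.84 and 0.84 there and 0.08 and -0.12 against wild type 1 and 2, and the cargo-receptor subunit Mcfd2 had 0.42 over all libraries.

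Of 15 regulators, 3 rose and 7 fell against wild type 3 and 4, where 22.1% of all genes rose and 24.7% fell, and 0 were called against wild type 1 and 2. Xbp1, a transcription factor of many isomerase genes, had 8714, 8092 and 10910 normalized counts in mutant 1 to 3, against 5619, 5873, 4789 and 5984 in wild type 1 to 4, and log2 differences of 0.67 and 0.78 against wild type 1 and 2 and wild type 3 and 4. Ddit3, which encodes CHOP, had 1155, 1120 and 1222 in mutant 1 to 3, against 497, 769, 772 and 854 in wild type 1 to 4. The sensor gene Eif2ak3 (PERK) had 197 to 345 in the mutant and 237 to 799 in wild type.

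**Figure D4:**
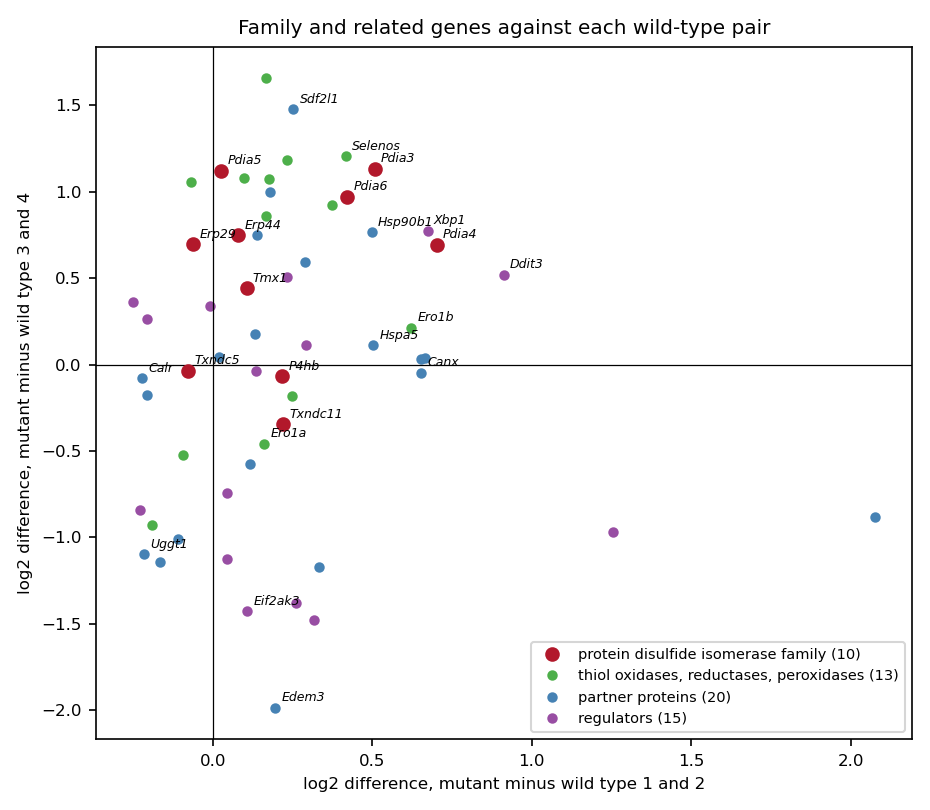
Log2 difference of each tested gene between the mutant and wild type 1 and 2 (horizontal) and wild type 3 and 4 (vertical), for the family (10 genes), thiol oxidases, reductases and peroxidases (13), partner proteins (20) and regulators (15). Pdia3, Pdia4, Pdia6, Xbp1 and Hsp90b1 lie on the positive side of both axes; both axes share the mutant libraries.

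By likeness across the 7 libraries (Pearson's r of log2 values, n = 7, chosen as highest among all genes tested), Pdia3 and Pdia6 were near each other (r = 0.989), and Zfp386 was the nearest gene of both (0.992 and 0.994). Nearest to Pdia4 were Igfbp7 (0.982), Derl3 (0.979), which is also on the plasma cell list, and Isyna1 (0.973). Armc1 was nearest to Pdia5 (r above 0.99), Praf2 to Erp29 (0.999), Eif2a to Erp44 (0.997) and Snap47 to Tmx1 (0.992). Pls3, Gm37935 and Fbxo28 were nearest to P4hb (0.983), Txndc5 (0.984) and Txndc11 (0.989). Over the members themselves, r ran from -0.91 between Erp29 and Txndc11 to 0.989.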

How the data were processed

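Normalized counts per gene (19649 genes) and FPKM per transcript (66660 transcripts) for 7 libraries were used as deposited by the authors. RNA was taken up with PicoPure, per the labels' protocols, turned into cDNA with SMART-Seq v4, and prepared for sequencing by Swift's 2S Plus chemistry. No step that keeps strand is named, so reads of overlapping or antisense genes cannot be told apart. The submitters' processing notes name GRCm38, DESeq2 1.12.4, Cufflinks 2.2.1, HTSeq 0.6.1, STAR 2.7.3a and FastQC 0.11.7. The authors' signal was whole reads divided by 1 size factor per library: 100% of values in each library were whole multiples of 1 step within 0.01 reads, so reads were recovered. Normalized counts are not scaled by length. Gene positions came from GENCODE vM21 (GRCm38), matching 97.7% of genes and 99.1% of transcripts.

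Genes that reached 10 normalized counts in 3 or more libraries were tested with limma 3.58.1 (R 4.3.3) on log2(normalized count + 1), two-sided, with a variance trend and Benjamini-Hochberg adjustment over all genes at 0.05. A fit had 2 groups (mutant, wild type); another had 3 groups (mutant, wild type 1 and 2, wild type 3 and 4). Transcripts were tested on log2(FPKM + 1). edgeR 4.0.16 and DESeq2 1.42.0 were run on recovered reads. The gene-level fits were tested on simulated counts that held no difference between the wild-type pairs, unlike the data. The members, lists, tests and alternatives were chosen with earlier results of these data known. Related genes named were the 3 largest differences of each list and 7 set genes; the 3 genes of highest Pearson r were listed per member, of which the report names at least the first.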

Additional observations from a re-analysis of the deposited data

How the results depend on the processing

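Over all 7 libraries, 0 genes were called with the pseudocounts of 0.5 and 10, no filter, TMM scaling, quantile normalization, edgeR, summed FPKM and any 1 library left out. Other settings called more: DESeq2 110, the length slope 127, the title series as a covariate 3597, the shared title series only 6010, its outside 1022 (from a single mutant library, with the spread of wild type 1 and 2), 6828 where wild type 1 and 2 were left out, and 51 where wild type 3 and 4 were. Against wild type 1 and 2, where 50 genes were called, DESeq2 called 386, edgeR 24 and quantile normalization 30, and leaving out 1 library gave 0 (without wild type 1) to 595 (without mutant 2). Against wild type 3 and 4 (7511 called) leaving out 1 library gave 4348 to 8969, and between the wild-type pairs (7215 called) 4342 to 8513. Quantile normalization moved the median of all genes to 0.11 against wild type 3 and 4, with 4371 higher and 3453 lower calls, and to -0.11 between the pairs, with 3317 higher and 4185 lower. Of the members' transcripts, 0 were called in all settings except where wild type 1 and 2 were left out, where 6 of 23 (26.1%) were, against 22.5% of all transcripts.

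The signs of Pdia3, Pdia4 and Pdia6 for the mutant were the same in all alternatives run. For mutant against wild type they ran from 0.50 to 1.13, 0.56 to 0.84 and 0.42 to 0.97, including fits that left libraries out. With 1 library left out, the lowest values were 0.41, 0.67 and 0.30 against wild type 1 and 2. Against wild type 3 and 4 they were 0.74, 0.29 and 0.71. The sign of P4hb over all libraries (0.08) turned with quantile normalization (-0.12), with wild type 1 and 2 left out (-0.065) and in the shared title series (-0.0071), and was -0.013 to 0.13 without 1 library. Txndc5 (-0.06) had 0.0063 in the shared series. Txndc11 (-0.06) had 0.22 with wild type 3 and 4 left out, 0.15 outside the shared series and 0.20 with the length slope, and -0.16 to 0.088 without 1 library. Erp29 (0.32) had -0.062 with wild type 3 and 4 left out and -0.047 with the length slope. Without 1 library, differences from wild type 1 and 2 were -0.12 to 0.12 for Pdia5, -0.20 to 0.042 for Txndc5, -0.013 to 0.23 for Tmx1 and -0.18 to 0.056 for Erp29, and the difference of Txndc5 from wild type 3 and 4 was -0.12 to 0.015. Between the wild-type pairs it was -0.40 to 0.42 for Pdia4 and -0.16 to 0.077 for Txndc5, which had 0.064 with quantile normalization. The call of Pdia4 against wild type 3 and 4 was also lost with quantile normalization (0.57, adjusted p = 0.0546). The causes were not tested. No paired analysis was possible because no title number occurs in both genotypes.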

Other observations

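Wild type 3 and wild type 4 differed from each other in Pdia3, Pdia4 and Pdia6. Pdia3, Pdia4 and Pdia6 had 22605, 7301 and 12962 normalized counts in wild type 4, against 13184, 4137 and 8982 in wild type 3, ratios of 1.71, 1.76 and 1.44, while the median ratio over all genes tested was 0.995 and 9.75% of genes reached 1.4, a limit chosen after the values were seen. Among related genes, chosen here after their values were seen, Hsp90b1, which encodes the ER form of HSP90, had a ratio of 1.73, Sdf2l1 2.27, Hyou1, an ER chaperone, 1.49 and Canx 1.44. Derl3, a channel component of ER-associated degradation that is also on the plasma cell list, had 150 normalized counts in wild type 4, against 24.2 in wild type 3 (6.19). Hspa5 and P4hb had ratios of 0.961 and 1.02. Each value is from 1 library a side, with no replicate check. In wild type 2, set against wild type 1, the ratios were 0.925, 0.956 and 0.861 for Pdia3, Pdia4 and Pdia6, and 12.1% of genes reached 1.4.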
